A study of Homo sapiens with 12 samples.

Results

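The comparison set HL-60 cells at the high dose of DSA against HL-60 cells at the low dose, to see which gene programmes kept growing, levelled off or turned between the doses. It used 4 of the 12 RNA sequencing libraries of the series, chosen by their titles, with 2 libraries at 500 pM and 2 at 112.7 pM. Levels of mRNA were measured in 2 human AML cell lines, HL-60 and Molm-14, after 36 h with duocarmycin stable A (DSA), a DNA alkylator, or without it. The 2 HL-60 control libraries, untreated by their labels while the methods name a vehicle, gave the step from control to low dose, and 4 Molm-14 libraries at 11.1 and 100 pM gave the same step in the other line. HL-60 is an established line that resembles promyelocytes, and it grew in another medium and serum content than Molm-14. The labels do not say that replicates were separate cultures, so the p-values rest on a spread between libraries that may be technical.

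Promyelocytes are precursors of granulocytes that fill their early granules with proteases and peroxidase. HL-60 cells carry extra copies of MYC and are widely used because several agents drive them towards granulocyte-like or macrophage-like cells. Duocarmycins bind the minor groove of DNA at stretches rich in A and T and alkylate adenine there. Such adducts stall polymerases and replication forks and activate the damage response, and genes of stress, inflammation and differentiation can follow.

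Levels are given as CPM, counts relative to the library's total over the genes in the fit, after TMM scaling. They are listed for each library in the order of its replicate number, and they compare samples rather than genes. The test was edgeR's quasi-likelihood test fitted once over all 12 libraries on 13422 protein-coding genes, and every adjusted p is from it with the Benjamini-Hochberg method over these genes. Log2 fold changes carry a standard error (SE), and a gene counts as called where its adjusted p is under 0.05 and it changed by more than a factor of 2. For members of gene lists the adjusted p alone was asked. The first step means low dose minus control and the second step high minus low dose. Both steps share the low-dose libraries, so a value that is high by chance at the low dose raises the first and lowers the second. Counts of genes by pattern are therefore descriptions.

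Total expected counts ran from 21177424 to 32012199 in the 4 treated libraries and up to 63927449 in the controls, so genes of low abundance had the largest counting error at both doses. Mitochondrially encoded genes took 2.22% and 2.47% of control counts, 3.68% and 3.76% of low-dose counts and 5.46% and 4.64% of high-dose counts, and the part of this rise in the results below was not tested. The HL-60 label fitted its markers. The 8 promyelocyte genes of its list, among them MPO and ELANE, summed to 18884 and 19134 CPM in the controls, 14756 and 15143 CPM at the low dose and 7362 and 7376 CPM at the high dose, while 6 homeobox and related genes typical of Molm-14 cells summed to 24.99 to 33.9 CPM throughout. Of 36 markers of T, B, erythroid or megakaryocyte and epithelial or fibroblast cells, 13 were at 0 in every HL-60 library, among them MS4A1, HBB, KRT5 and COL1A2. Their 4 lists summed to 0.590 to 6.76 CPM in the controls, 1.73 to 13.4 CPM at the low dose and 4.33 to 20.6 CPM at the high dose, and the part of this rise in the results below was not tested. In bulk samples, fewer cells of a type and less RNA per cell cannot be told apart.

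At the high dose, genes went up far more often by a large factor than down. From low to high dose 1094 genes (8.15% of those tested) were higher and 97 (0.723%) lower. At the adjusted p alone, 3475 genes (25.9%) were higher and 3591 (26.8%) lower, so that the decreases were as many as the increases but small. With total counts as the only scaling the median gene moved by 0.11 on the log2 scale and gave 4831 higher and 2107 lower genes. In the first step 748 genes (5.57%) were called higher and 39 (0.291%) lower, and 24.2% rose and 27.4% fell at the adjusted p alone. Over both steps, from control to high dose, 2213 genes (16.5%) were called higher and 275 (2.05%) lower, and 35.8% rose and 37.8% fell at the adjusted p alone. The CPM of both high-dose libraries lay above both low-dose libraries in 36.8% of genes and below them in 36.4%.

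By pattern, 1912 genes (14.2%) rose in both steps and 1982 (14.8%) fell in both, and 361 of the rising and 4 of the falling genes exceeded a factor of 2 in each step. Late genes, called in the second step without passing the adjusted p in the first, numbered 507 upwards (3.78%) and 61 downwards (0.454%). Turning genes, which passed the adjusted p in both steps with opposite signs, numbered 236 up then down (1.76%) and 253 down then up (1.88%). Saturating genes had to be called in the first step, keep the 95% interval of the second step within a factor of 1.5, and differ between the steps. There were 17 upwards (0.127%) and 1 downwards (0.00745%). The second step itself differed from the first by an adjusted p under 0.05 and more than a factor of 2 in 176 genes upwards (1.31%) and 120 downwards (0.894%), and by the adjusted p alone in 11.6% of genes upwards and 11% downwards.

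**Figure D1:**
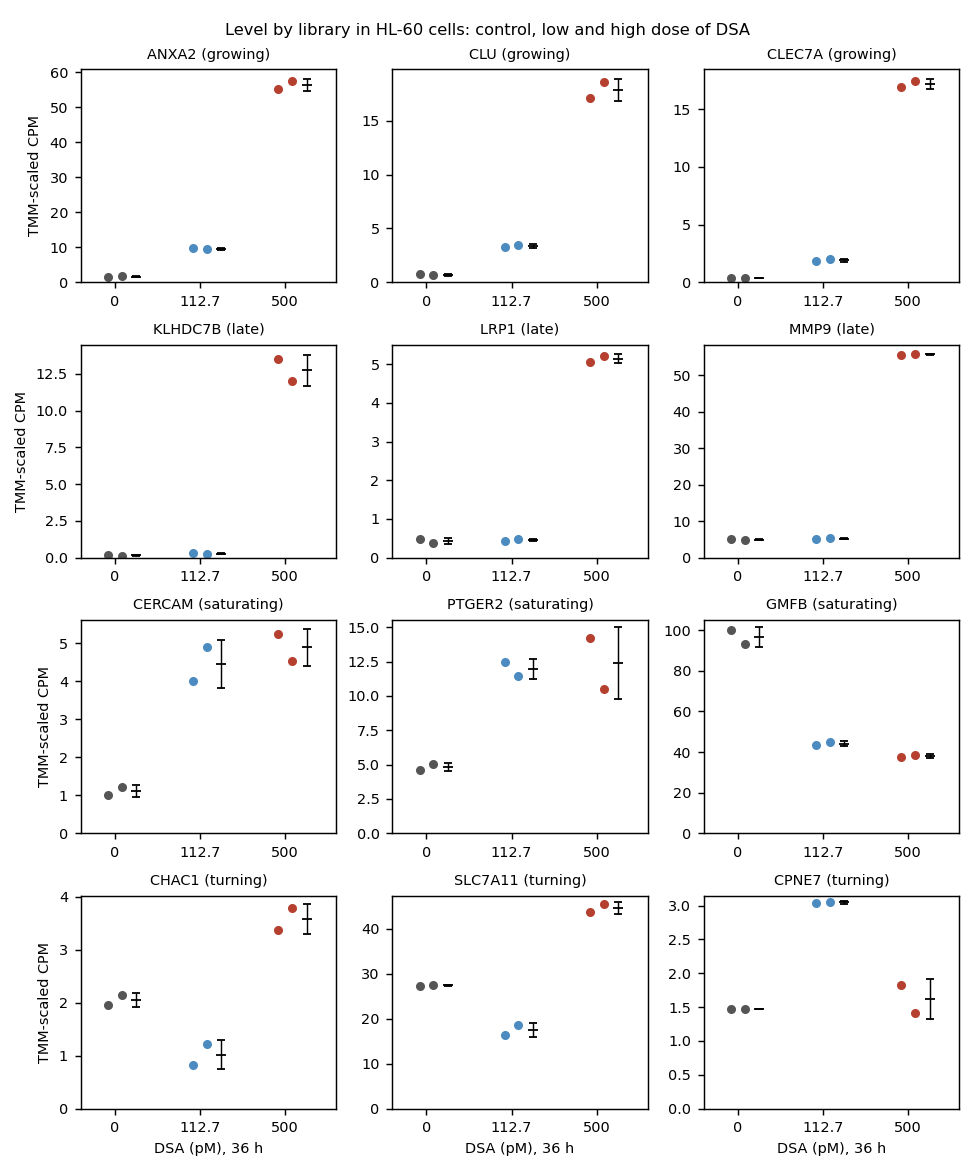
TMM-scaled CPM (linear axis from 0) of 12 genes in each HL-60 library against the DSA dose in pM (0, 112.7 and 500), 3 genes for each pattern. Points are libraries and the black mark is the mean with its SD (n = 2). ANXA2, CLU and CLEC7A rose at each dose, KLHDC7B, LRP1 and MMP9 rose at 500 pM, CERCAM, PTGER2 and GMFB changed mostly at 112.7 pM, and CHAC1, SLC7A11 and CPNE7 turned.

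The largest increase from low to high dose was in KLHDC7B, a kelch-domain protein (ENSG00000130487.8, GRCh38 chromosome 22, 50545899 to 50551023). It stood at 0.188 and 0.136 CPM in the controls, 0.289 and 0.269 CPM at the low dose and 13.5 and 11.98 CPM at the high dose. The high-dose libraries lay far above the other 4, and the log2 fold change of the second step was 5.50, SE 0.27, adjusted p = 7.65e-12, against 0.81, adjusted p = 0.192 for the first. NRP2, a receptor of semaphorins, stood at 0.107 and 0.0848 CPM in the controls, 0.289 and 0.202 CPM at the low dose and 5.01 and 6.30 CPM at the high dose (second step 4.56, SE 0.29). LRP1, a large endocytic receptor, stood at 0.483 and 0.373 CPM in the controls, 0.434 and 0.470 CPM at the low dose and 5.06 and 5.22 CPM at the high dose (second step 3.49, SE 0.27). The first step did not pass the test in either gene. In NRP2 it was 1.31, SE 0.58, adjusted p = 0.0681, with low-dose values above the controls but only 4 to 6 counts per library. In LRP1 control and low-dose values lay close together (0.12, adjusted p = 0.815). The high-dose values of both genes stood apart from the rest. Others among the 12 largest increases encode matrix and adhesion proteins, TGFBI (4.12), THBS1 (4.09), COL6A1 (4.04) and PCDH12 (3.93), the keratin KRT80 (3.49) and the CDK inhibitor CDKN1A (3.91). FCGR2C (4.16) and FCGR2B (3.59), receptors for the constant part of IgG, are near-identical over much of their length, so the counts of each are uncertain.

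The largest decreases were smaller in size, and several were in granule genes that are described further on. HMGA2, a chromatin protein that binds A- and T-rich DNA, stood at 43.4 and 43.2 CPM in the controls, 30.9 and 31.2 CPM at the low dose and 12.6 and 12.8 CPM at the high dose. It fell in both steps (−0.48, SE 0.06 and −1.29, SE 0.07). TSPOAP1 (−1.28), TPPP (−1.63), IMMP2L (−1.44) and EML5 (−1.36) also fell in the second step. IGLL1, a surrogate light chain of the precursor B cell receptor, stood at 6.17 and 6.57 CPM in the controls, 10.99 and 9.81 CPM at the low dose and 2.62 and 3.19 CPM at the high dose. It rose at the low dose (0.70, adjusted p = 0.00127) and fell below its control level at the high dose (−1.81, SE 0.19, adjusted p = 2.02e-07). ENSG00000283761 (−1.60) and ENSG00000280893 (−1.42), which are listed by identifier alone, fell too, and the latter no longer passed the test with DESeq2.

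Interferon-stimulated genes mostly grew in both steps. These genes encode antiviral effectors and are switched on when a complex with STAT2 and IRF9 binds the interferon-stimulated response element (ISRE) in their promoters. Of 37 list members tested, 27 rose and 2 fell in the first step (median log2 fold change 0.81), and 33 rose and none fell in the second (median 0.95), against 25.9% of all genes rising in the second step with a median of 0.0016. Both steps raised 27 of them. Promoter stretches of 5 genes are printed to show the element, with its letters, TTTC at 2 places with any 2 bases between them, on either strand, in capitals, from RefSeq sequence of build GRCh38.p14 within 250 bases before the start of the gene.
BST2 (chr19:17405720-17405785, minus strand): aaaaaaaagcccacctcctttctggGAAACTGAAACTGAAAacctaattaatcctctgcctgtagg
IFIT1 (chr10:89392482-89392554, plus strand): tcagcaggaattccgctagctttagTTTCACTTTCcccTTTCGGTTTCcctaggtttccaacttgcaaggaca
IFI6 (chr1:27672251-27672373, minus strand): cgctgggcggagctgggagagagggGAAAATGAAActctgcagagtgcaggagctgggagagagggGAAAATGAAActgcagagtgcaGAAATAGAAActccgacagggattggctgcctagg
PARP14 (chr3:122680785-122680838, plus strand): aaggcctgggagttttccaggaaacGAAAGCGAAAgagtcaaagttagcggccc
SAMD9 (chr7:93118081-93118140, minus strand): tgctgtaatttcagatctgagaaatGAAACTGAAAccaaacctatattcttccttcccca
The letters occurred in 15 of the 28 list promoters found (53.57%) and in 3.073% of all 27305 promoters. They are a description of sequence, and matches can overlap, as in BST2.

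Among genes with the element, PARP14, an ADP-ribosyltransferase, stood at 14.96 and 14.0 CPM in the controls, 34.4 and 33.1 CPM at the low dose and 63.2 and 66.0 CPM at the high dose. BST2, which tethers virions to the cell surface, stood at 12.2 and 12.6 CPM in the controls, 23.9 and 25.8 CPM at the low dose and 48.5 and 48.0 CPM at the high dose. OAS3, a sensor of double-stranded RNA, stood at 16.2 and 15.1 CPM in the controls, 32.4 and 33.8 CPM at the low dose and 82.9 and 80.9 CPM at the high dose. In these 3 genes no group overlapped another, and each step came close to a factor of 2, with second steps of 0.94, SE 0.05, adjusted p = 2.8e-11, 0.95, SE 0.05, adjusted p = 5.83e-11 and 1.30, SE 0.06, adjusted p = 2.87e-12. GBP2, a guanylate-binding protein, rose further in the second step (2.16, SE 0.09) than in the first (1.42, SE 0.11), from 8.19 and 8.37 CPM at the low dose to 38.9 and 35.6 CPM at the high dose. SAMD9, whose promoter holds the same letters, stood at 35.4 and 32.7 CPM in the controls, 27.8 and 26.2 CPM at the low dose and 25.7 and 25.9 CPM at the high dose. It fell in the first step (−0.33, adjusted p = 0.000269) and did not pass the test in the second (−0.06, adjusted p = 0.478). STAT2 rose in both steps (0.48 and 0.71) and IRF9 in the second (1.13, SE 0.19, adjusted p = 7.84e-05). IFIT1 rose by 0.41 and then 0.39, and IFI6 by 1.34 and then 1.65. SAMD9, STAT2, IRF9, IFIT1 and IFI6 were chosen after their values were seen.

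Genes of monocytes and macrophages grew as well. Of 29 listed genes 23 passed the filter on low counts. Of these 17 rose in the first step and 19 in the second, with none falling in either (medians 0.68 and 1.07), and 15 rose in both. The untested members, CD163, MSR1, MRC1, FCGR3A, VCAN and CD300E, had between 0 and 3 counts in each HL-60 library. CLEC7A, a receptor for fungal glucans, stood at 0.402 and 0.373 CPM in the controls, 1.83 and 1.98 CPM at the low dose and 16.9 and 17.5 CPM at the high dose. CD14, a co-receptor for bacterial lipopolysaccharide, stood at 1.10 and 0.933 CPM in the controls, 2.31 and 1.98 CPM at the low dose and 20.8 and 23.1 CPM at the high dose. Low-dose values were above the controls in both genes and high-dose values were several-fold above those, with second steps of 3.16, SE 0.16, adjusted p = 2.69e-11 and 3.37, SE 0.16, adjusted p = 4.86e-12. The signalling adaptors TYROBP (0.62 and 0.84) and FCER1G (0.59 and 1.04) rose in both steps. FCGR1A, the high-affinity receptor for IgG, named after its values were seen, stood at 48.2 and 49.2 CPM in the controls, 86.8 and 85.8 CPM at the low dose and 89.8 and 89.5 CPM at the high dose. Its groups at the low and high dose lay close together (0.82, SE 0.04, adjusted p = 2.81e-11 in the first step and 0.05, adjusted p = 0.262 in the second).

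Integrins and NADPH oxidase subunits, which phagocytes use to adhere and to make superoxide, followed. ITGAX, the integrin chain CD11c, stood at 2.52 and 2.19 CPM in the controls, 8.58 and 8.37 CPM at the low dose and 50.7 and 46.1 CPM at the high dose. ITGAM, the integrin chain CD11b, stood at 4.10 and 4.004 CPM in the controls, 11.2 and 10.5 CPM at the low dose and 46.3 and 48.6 CPM at the high dose. Each dose lay above the one before in both genes, and the second steps were 2.51, SE 0.10 and 2.14, SE 0.07. In the integrin list 11 of 16 rose and 1 fell in the first step and 13 rose and 1 fell in the second (medians 0.46 and 0.74). Of the 7 oxidase subunits 6 rose in both steps. NCF1 rose by 1.35 in the second step, with near-identical pseudogenes that can share its reads, and CYBB (0.60 and 0.48) and NCF4 (0.67 and 0.39) rose less in the second step than in the first.

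Annexins and S100 proteins, calcium-binding proteins of membranes and secretion, grew in both steps. Of 16 tested, 14 rose in the first step, 13 rose and 1 fell in the second, and 13 rose in both (medians 0.51 and 0.91). ANXA2 (ENSG00000182718.16, GRCh38 chromosome 15, 60347134 to 60402883) stood at 1.47 and 1.73 CPM in the controls, 9.73 and 9.41 CPM at the low dose and 55.1 and 57.5 CPM at the high dose. Its partner S100A10 stood at 15.8 and 15.6 CPM in the controls, 35.9 and 38.4 CPM at the low dose and 101 and 96.2 CPM at the high dose. The log2 fold changes of the 2 steps were 2.55 and 2.56 for ANXA2 and 1.25 and 1.40 for S100A10, so each dose multiplied both by a like factor. S100A9, a subunit of calprotectin, rose mostly in the second step (0.50 and then 1.82), from 37.2 and 40.3 CPM at the low dose to 138 and 138 CPM at the high dose. ANXA11, named after its values were seen, was the member that fell (−0.13, adjusted p = 0.00333) after a small rise (0.14, adjusted p = 0.00184).

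Other surface and secreted programmes grew in both steps. Lysosomal genes rose in 26 of 35 members in the first step and 25 in the second, with 2 falling in each (medians 0.31 and 0.33), among them the sphingomyelinase SMPD1 (1.63) and TFEB (1.505), a transcription factor for lysosomal genes. Collagens and matrix genes rose in 9 and then 15 of 19 tested, with none falling (medians 0.87 and 0.96), among them ECM1, which stood at 4.64 and 5.06 CPM in the controls, 11.1 and 11.1 CPM at the low dose and 96.9 and 95.1 CPM at the high dose, and the laminin chain LAMB3 (1.61 and 2.86). Complement genes rose in 8 and then 10 of 17, with 1 falling in each step (medians 0.37 and 1.23). C3, the central complement protein, stood at 8.55 and 7.99 CPM in the controls, 10.5 and 11.2 CPM at the low dose and 61.0 and 58.4 CPM at the high dose. CLU, a secreted chaperone and complement inhibitor, stood at 0.724 and 0.645 CPM in the controls, 3.23 and 3.49 CPM at the low dose and 17.1 and 18.6 CPM at the high dose. C3 rose mostly in the second step (0.40 and then 2.46) while CLU rose evenly (2.31 and 2.40). Semaphorins, plexins and neuropilins rose in 15 and then 13 of 20 with none falling, and actin and vimentin genes rose in 16 of 27 in each step (3 fell in the first and 1 in the second).

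Antigen presentation genes were read by class. MHC class I genes rose in 13 of 15 in the first step (median 0.33), and in the second 9 rose and 2 fell (median 0.16). In 8 of them the second step was smaller than the first past the test of the difference, and in none was it larger. PSMB10, an immunoproteasome subunit, rose and then fell (0.15 and −0.31), while PSMB9 rose in both (1.03 and 0.48). Class II genes were low, and 4 of 9 rose in the first step and 3 in the second, against 24.2% and 25.9% of all genes. With so few genes of low counts, these tallies cannot separate the classes. CD74, the invariant chain, stood at 11.99 and 12.9 CPM in the controls, 24.1 and 23.8 CPM at the low dose and 56.5 and 55.9 CPM at the high dose. It rose in each step (0.94 and 1.23), whereas CIITA, the class II transactivator, stayed under 1 CPM (second step 2.19, SE 0.49, adjusted p = 0.00092).

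FFAR2, a receptor for short-chain fatty acids, ID3, an inhibitor of helix-loop-helix factors, and SIGLEC9, an inhibitory lectin, completed the growing genes with the largest smaller step. FFAR2 stood at 1.88 and 2.002 CPM in the controls, 9.54 and 8.90 CPM at the low dose and 55.2 and 59.6 CPM at the high dose. ID3 stood at 0.295 and 0.305 CPM in the controls, 1.49 and 1.28 CPM at the low dose and 12.8 and 11.5 CPM at the high dose. SIGLEC9 stood at 0.322 and 0.305 CPM in the controls, 1.25 and 1.55 CPM at the low dose and 6.65 and 5.96 CPM at the high dose. All 3 rose by more than a factor of 4 in each step. Falling genes named by the same rule included MS4A2, the beta chain of the IgE receptor (−1.15 and −1.43), the sestrin SESN3 (−0.85 and −0.96), the lectin CD302 (−0.76 and −0.90), BBS9 (−0.73 and −0.97) and MINAR1 (−0.71 and −1.27).

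NF-kB targets moved mainly in the second step. NF-kB is a family of dimers, held in the cytoplasm by inhibitors until a signal frees them, that drive chemokines, adhesion molecules and their own inhibitors. Of 28 tested members, 11 rose and 3 fell in the first step (median 0.20), and 24 rose and none fell in the second (median 1.24). In 16 the second step was larger than the first past the test of the difference, in none was it smaller, and 8 were late genes. ICAM1, an adhesion molecule, stood at 2.92 and 1.87 CPM in the controls, 3.90 and 4.20 CPM at the low dose and 31.4 and 30.2 CPM at the high dose. NFKB2, a subunit made as a precursor, stood at 10.6 and 10.0 CPM in the controls, 18.1 and 17.9 CPM at the low dose and 73.1 and 66.6 CPM at the high dose. CCL2, a monocyte chemokine, stood at 114 and 101 CPM in the controls, 156 and 184 CPM at the low dose and 686 and 653 CPM at the high dose. Low-dose values were modestly above the controls in the 3 genes and the high-dose values did not overlap them, with second steps of 2.91, SE 0.11, adjusted p = 3.21e-13, 1.95, SE 0.06, adjusted p = 4.36e-14 and 1.97, SE 0.06, adjusted p = 2.11e-14. CCL4, chosen after its values were seen, stood at 18.4 and 13.8 CPM in the controls, 14.1 and 17.4 CPM at the low dose and 83.8 and 68.8 CPM at the high dose, so that its control and low-dose libraries overlapped (0.01, adjusted p = 0.987 and then 2.25, SE 0.12, adjusted p = 3.96e-11). Subunits differed. RELB rose in both steps (0.52 and 1.45), NFKB1 rose a little in the second (0.26), and RELA did not pass the test in the second (−0.09, adjusted p = 0.0863). TNF, in contrast to the chemokines, stood at 133 and 94.2 CPM in the controls, 79.3 and 121 CPM at the low dose and 116 and 91.0 CPM at the high dose, and these groups overlapped (0.01, adjusted p = 0.962). RELB, NFKB1, RELA and TNF were also chosen after their values were seen.

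Genes of the TGF-beta response and the ID family also rose more often in the second step. Of 16 tested, 7 rose and 2 fell in the first step (median 0.17) and 12 rose and none fell in the second (median 0.73). ID1, an inhibitor of helix-loop-helix factors, stood at 0.778 and 1.12 CPM in the controls, 1.06 and 0.907 CPM at the low dose and 9.74 and 9.03 CPM at the high dose. TGFBI, a matrix protein induced by TGF-beta, stood at 0.778 and 0.848 CPM in the controls, 1.40 and 1.21 CPM at the low dose and 22.2 and 22.8 CPM at the high dose. Control and low-dose values of ID1 overlapped and its high-dose values stood well above (3.26, SE 0.18, adjusted p = 5.16e-11), and TGFBI rose just past the test in the first step (0.65, adjusted p = 0.0481) and strongly in the second (4.12, SE 0.18, adjusted p = 7.4e-12). SKIL, a repressor of SMAD proteins, stood at 14.9 and 14.7 CPM in the controls, 9.20 and 9.74 CPM at the low dose and 19.3 and 21.1 CPM at the high dose, a fall followed by a rise above the control level (−0.64, adjusted p = 1.43e-05 and 1.10, SE 0.09, adjusted p = 1.98e-08). TGFB1, chosen after its values were seen, did not pass the test in the second step (0.06, adjusted p = 0.434).

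Several markers of mature granulocytes rose in both steps. Of 24 listed genes only 11 passed the filter on low counts. Of these 7 rose and 1 fell in the first step and 8 rose and none fell in the second (medians 0.50 and 1.79). MMP9, a gelatinase stored in late granules, stood at 5.01 and 4.78 CPM in the controls, 5.16 and 5.28 CPM at the low dose and 55.7 and 55.8 CPM at the high dose. S100A8, the other calprotectin subunit, stood at 6.65 and 6.50 CPM in the controls, 8.43 and 8.40 CPM at the low dose and 28.5 and 29.5 CPM at the high dose. PADI4, which citrullinates histones, stood at 1.53 and 1.92 CPM in the controls, 3.04 and 3.29 CPM at the low dose and 11.7 and 14.2 CPM at the high dose. High-dose values lay apart from the rest in all 3, with second steps of 3.42, SE 0.09, adjusted p = 4.38e-15, 1.79, SE 0.08, adjusted p = 3.19e-12 and 2.03, SE 0.16, adjusted p = 6.97e-09. The secondary granule genes LTF, LCN2, MMP8, CEACAM8 and OLFM4 did not pass the filter and had between 0 and 3 counts in each HL-60 library. CXCR2, a chemokine receptor, rose in the first step (0.65, adjusted p = 2.54e-06) and did not pass in the second (−0.07, adjusted p = 0.533), and CSF3R, the G-CSF receptor, stood at 61.4 and 60.5 CPM at the low dose and 63.0 and 61.0 CPM at the high dose (0.02, adjusted p = 0.712). CXCR2, CSF3R and the 5 untested genes were chosen after their values were seen.

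**Figure D2:**
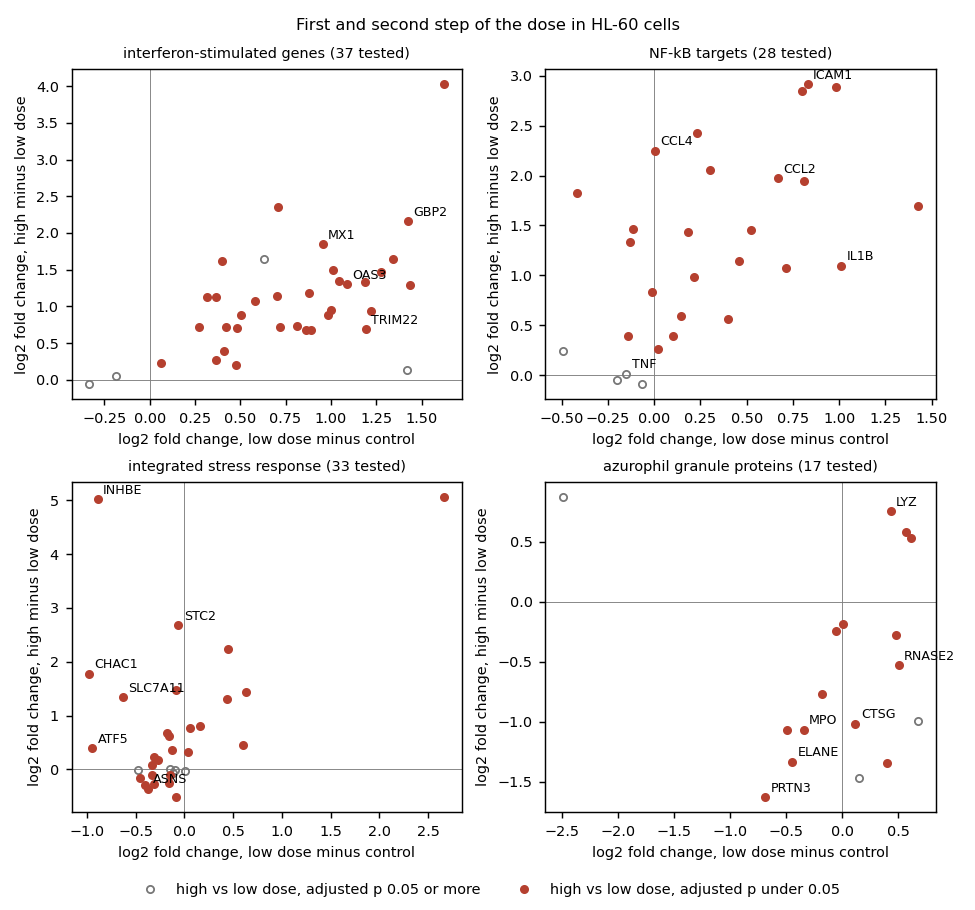
Log2 fold change of the first step (low dose minus control, horizontal) against that of the second (high minus low dose, vertical) for the tested genes of 4 lists in HL-60 cells. Filled points passed an adjusted p of 0.05 in the second step, and 33 interferon-stimulated genes, 24 NF-kB targets and 20 stress response genes lie above 0 filled, while 11 of 17 azurophil granule genes lie below 0 filled.

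Azurophil granule genes, the hallmark of the promyelocyte, were split in the first step and fell in the second. Of 17 tested, 6 rose and 6 fell in the first step (median 0.12), and 3 rose and 11 fell in the second (median −0.77, against 26.8% of all genes falling). In 11 the second step was lower than the first past the test of the difference. PRTN3, proteinase 3 (ENSG00000196415.10, GRCh38 chromosome 19, 840999 to 848175), stood at 1929 and 2204 CPM in the controls, 1286 and 1281 CPM at the low dose and 429.7 and 401 CPM at the high dose. ELANE, neutrophil elastase, stood at 400.5 and 428 CPM in the controls, 299 and 309 CPM at the low dose and 125 and 117 CPM at the high dose. MPO, myeloperoxidase, stood at 15708 and 15646 CPM in the controls, 12156 and 12530.4 CPM at the low dose and 5851 and 5924 CPM at the high dose. Each dose lay below the one before, without overlap, and the second steps (−1.63, SE 0.05, adjusted p = 2.11e-14, −1.33, SE 0.05, adjusted p = 1.52e-13 and −1.07, SE 0.04, adjusted p = 1.66e-13) exceeded the first (−0.69, −0.45 and −0.34). CTSG, cathepsin G, stood at 132 and 132 CPM in the controls, 142 and 144 CPM at the low dose and 72.6 and 69.0 CPM at the high dose. It turned, with a small rise (0.12, adjusted p = 0.00972) before its fall (−1.02, SE 0.04, adjusted p = 2.68e-13), as did the ribonuclease RNASE2 (0.50 and −0.53) and the protease inhibitor CST7 (0.48 and −0.28). LYZ, lysozyme, stood at 50.9 and 53.9 CPM in the controls, 70.6 and 71.0 CPM at the low dose and 120.4 and 119 CPM at the high dose, a rise in both steps (0.43 and 0.75), and the serpin SERPINB1 (0.53) and BPI (0.58) rose with it. CST7, LYZ, SERPINB1 and BPI were chosen after their values were seen. DEFA1 and DEFA3 are near-identical copies, and their counts are uncertain.

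Genes of eosinophils, basophils and mast cells did not share a direction (4 rose and 4 fell of 12 in the second step). PRG2, the major basic protein of eosinophil granules, stood at 1450.2 and 1489 CPM in the controls, 1239 and 1321 CPM at the low dose and 458 and 498 CPM at the high dose. Its fall in the second step (−1.42, SE 0.05, adjusted p = 3.35e-14) was larger than in the first (−0.20), while GATA2, a transcription factor of mast cells and progenitors, rose (0.13 and 0.46). Among 17 myeloid transcription factors 3 rose and 4 fell in the first step and 4 rose and 6 fell in the second. CEBPA, which drives granulocyte fate, stood at 742 and 745 CPM in the controls, 766 and 729 CPM at the low dose and 517 and 487 CPM at the high dose. MYB, a factor of progenitor growth, stood at 331 and 317 CPM in the controls, 277 and 267 CPM at the low dose and 187 and 179 CPM at the high dose. CEBPA fell in the second step (−0.57, SE 0.04, adjusted p = 2.22e-10) with no change past the test in the first (0.01, adjusted p = 0.886), MYB fell in both (−0.25 and −0.57), and LMO2 likewise (−0.28 and −0.65). MYC stood at 2231 and 2056 CPM in the controls, 1827 and 1865 CPM at the low dose and 961 and 947 CPM at the high dose, with a first step of −0.22, adjusted p = 2.69e-05 and a second of −0.95, SE 0.03, adjusted p = 1.07e-13. In the wider MYC and MAX network of 12 tested genes, 6 rose and 2 fell in the second step.

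Integrated stress response genes fell more often than they rose in the first step and rose more often than they fell in the second. In this pathway kinases that sense amino acid shortage, unfolded proteins or other stress slow translation, and ATF4 then induces amino acid transporters, synthesis enzymes and stress factors through the amino acid response element. Of 33 tested members, 2 rose and 17 fell in the first step (median −0.15). In the second step 20 rose and 8 fell (median 0.32). In all, 7 fell and then rose, as 1.88% of all genes did, and in 17 the second step was higher than the first past the test of the difference.

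CHAC1, which degrades glutathione (ENSG00000128965.13, GRCh38 chromosome 15, 40952962 to 40956512), stood at 1.96 and 2.14 CPM in the controls, 0.819 and 1.21 CPM at the low dose and 3.37 and 3.78 CPM at the high dose. SLC7A11, the cystine importer, stood at 27.4 and 27.5 CPM in the controls, 16.4 and 18.6 CPM at the low dose and 43.7 and 45.5 CPM at the high dose. STC2, a secreted glycoprotein, stood at 2.47 and 2.38 CPM in the controls, 1.83 and 2.65 CPM at the low dose and 15.2 and 14.6 CPM at the high dose. In CHAC1 and SLC7A11 the low dose lay below the controls and the high dose above them (−0.98, adjusted p = 0.000914 and 1.78, SE 0.21, adjusted p = 1.05e-06, −0.63, adjusted p = 4.47e-06 and 1.34, SE 0.08, adjusted p = 2.34e-10), and in STC2 the low dose overlapped the controls and the high dose stood apart (2.68, SE 0.12, adjusted p = 3e-12). The transcription factors DDIT3 (1.48, SE 0.10, adjusted p = 8.67e-10) and ATF3 (1.44, SE 0.10, adjusted p = 1.37e-09) rose in the second step. NUPR1, a stress-induced chromatin protein, went from 0 and 0.0336 CPM at the low dose to 0.749 and 0.799 CPM at the high dose. INHBE, a secreted activin chain, went from 0.0964 and 0.0336 CPM at the low dose to 1.97 and 2.09 CPM at the high dose. ATF4 itself stood at 695 and 735 CPM in the controls, 509.5 and 568 CPM at the low dose and 448 and 440.1 CPM at the high dose. It fell in both steps (−0.41 and −0.28). ASNS, asparagine synthetase, stood at 69.4 and 69.6 CPM in the controls, 54.2 and 52.99 CPM at the low dose and 41.3 and 42.1 CPM at the high dose, and also fell in both (−0.38 and −0.36). PSAT1 and PHGDH, enzymes of serine synthesis, fell in the first step (−0.48 and −0.12) and did not pass the test in the second (−0.02, adjusted p = 0.738 and −0.06, adjusted p = 0.149). ATF5 fell and then partly returned (−0.95 and 0.40). INHBE, ATF4, ASNS, PSAT1, PHGDH and ATF5 were chosen after their values were seen.

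Promoter stretches of a gene that turned and of a gene that fell are printed to show that both hold the amino acid response element, TGATGNAA on either strand, in capitals, within the same 250 bases of RefSeq sequence (GRCh38.p14). The RefSeq start of CHAC1 lies inside the GENCODE span given above.
CHAC1 (chr15:40953237-40953294, plus strand): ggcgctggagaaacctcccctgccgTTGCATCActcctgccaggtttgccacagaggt
ASNS (chr7:97872444-97872501, minus strand): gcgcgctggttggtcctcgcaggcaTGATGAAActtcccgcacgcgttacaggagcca
ATF3 held it too. These 3 were the matches among 27 promoters found for the list (11.11%), against 3.186% of all promoters.

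Genes of protein synthesis fell in steps of modest size. All 35 ribosome biogenesis genes tested fell in the second step (median −0.40) and 30 had fallen in the first (median −0.23), with none rising in either. NPM1, nucleophosmin, stood at 3590.0 and 3539 CPM in the controls, 2779 and 2738 CPM at the low dose and 1969 and 1945 CPM at the high dose. NCL, nucleolin, stood at 2529.9 and 2548 CPM in the controls, 2101 and 2194 CPM at the low dose and 1444 and 1532 CPM at the high dose. DDX21, a nucleolar helicase, stood at 851 and 819 CPM in the controls, 574 and 569 CPM at the low dose and 395 and 406 CPM at the high dose. The groups did not overlap, and the second steps were −0.50, SE 0.03, adjusted p = 1.36e-11, −0.53, SE 0.03, adjusted p = 1.02e-10 and −0.51, SE 0.03, adjusted p = 7.9e-11. BOP1, a factor of large subunit assembly, fell as well (−0.38 and −0.62). With scaling by total counts alone 32 of the 35 still fell. The letters CACGTG, bound by MYC and MAX, occurred in 2 of 30 promoters found for this list (6.667%), near the 6.49% of all promoters.

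Cytosolic ribosomal proteins changed later and less. Of 76 tested, 13 rose and 7 fell in the first step (median 0.0049), and none rose and 67 fell in the second (median −0.17). RPL5, of the large subunit, stood at 1888 and 1895 CPM in the controls, 1715 and 1744 CPM at the low dose and 1321 and 1345 CPM at the high dose. RPS26, of the small subunit, stood at 403 and 411 CPM in the controls, 395 and 409.5 CPM at the low dose and 286 and 288 CPM at the high dose. In RPS26 the controls and the low dose overlapped, and in both genes the high dose lay apart and below (−0.38, SE 0.03, adjusted p = 1.25e-09 and −0.49, SE 0.03, adjusted p = 6.65e-10). In all, 9 members turned from a rise to a fall. With total counts alone the median of the second step was −0.06, with 6 higher and 37 lower.

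Other biosynthetic lists fell in both steps. Of 20 aminoacyl-tRNA synthetases 1 rose and 17 fell in the first step and 4 rose and 14 fell in the second. IARS1 (−0.32 and −0.47) and VARS1 (−0.20 and −0.44) fell in both, whereas WARS1, the tryptophan enzyme, which is also induced by interferon, stood at 206 and 202 CPM in the controls, 182 and 189 CPM at the low dose and 240.5 and 243 CPM at the high dose, a fall and then a rise (−0.13, adjusted p = 0.00193 and 0.38, SE 0.03, adjusted p = 1.87e-08). Splicing factors (20 of 24 fell in the first step and 16 in the second, 3 rising in the second) included SRSF3 (−0.46 and −0.40). Chaperones of the endoplasmic reticulum fell within an unfolded protein response list in which 13 of 18 fell in the first step and 10 in the second, with 6 rising. CALR, calreticulin, stood at 3889 and 3859.8 CPM in the controls, 3432 and 3436 CPM at the low dose and 2263 and 2197 CPM at the high dose. HSPA5, the chaperone BiP, stood at 1692 and 1688 CPM in the controls, 1206 and 1268 CPM at the low dose and 939 and 942 CPM at the high dose. Both fell in each step without overlap, with second steps of −0.62, SE 0.03, adjusted p = 1.23e-12 and −0.40, SE 0.03, adjusted p = 3.23e-09. Heat shock proteins fell in 11 and then 10 of 15, with 3 rising in each step. With total counts alone 3 of them rose and 6 fell in the second step. In the unfolded protein response list 7 rose and 8 fell by that scaling.

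Lipid and sugar metabolism differed. Of 30 genes of cholesterol and fatty acid synthesis 6 rose and 14 fell in the first step and 3 rose and 25 fell in the second (median −0.28). SCD, a fatty acid desaturase, stood at 736 and 696 CPM in the controls, 616 and 582 CPM at the low dose and 379.8 and 383 CPM at the high dose. FASN, fatty acid synthase, stood at 946 and 931 CPM in the controls, 861 and 833 CPM at the low dose and 596 and 580.3 CPM at the high dose. Each dose lay below the one before (−0.65, SE 0.04, adjusted p = 6.6e-11 and −0.53, SE 0.03, adjusted p = 9.93e-11 in the second step). In glycolysis 12 of 22 rose and 5 fell in the first step, and 5 rose and 12 fell in the second (median −0.13). With total counts alone 7 rose and 8 fell in the second step (median −0.02). The glucose transporter SLC2A3 (0.60 and 1.38) and hexokinase HK1 (0.99 and 1.23) rose in both, and ENO1 (−0.12 and −0.38) and LDHA (−0.23 and −0.44) fell in both. Nuclear-encoded respiratory chain subunits were mixed in the first step (14 of 42 rose and 12 fell) and mostly fell in the second (1 rose and 23 fell), but with total counts alone 8 rose and 8 fell. The 13 mitochondrially encoded mRNAs, read in a fit of all gene types in which 22.1% of genes rose and 23.2% fell in the second step, rose in 11 cases in the first step and 5 in the second (medians 0.59 and 0.29). Of 31 proteasome genes 5 rose and 11 fell in the first step and 2 rose and 18 fell in the second, and with total counts alone 8 rose and 6 fell.

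Iron and oxidant genes rose. HMOX1, heme oxygenase, stood at 1.05 and 1.03 CPM in the controls, 3.52 and 3.999 CPM at the low dose and 23.6 and 27.2 CPM at the high dose. FTH1, the ferritin heavy chain, stood at 234 and 249 CPM in the controls, 357 and 357 CPM at the low dose and 830.3 and 781 CPM at the high dose. SQSTM1, an autophagy receptor, stood at 92.9 and 96.2 CPM in the controls, 139 and 149.5 CPM at the low dose and 369.9 and 376 CPM at the high dose. No groups overlapped, and the second steps were 2.75, SE 0.14, adjusted p = 1.3e-11, 1.17, SE 0.04, adjusted p = 2.11e-14 and 1.37, SE 0.04, adjusted p = 1.46e-14. In the list of 19 NRF2 targets and ferritin genes 11 rose and 3 fell in the first step and 10 rose and 2 fell in the second.

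**Figure D3:**
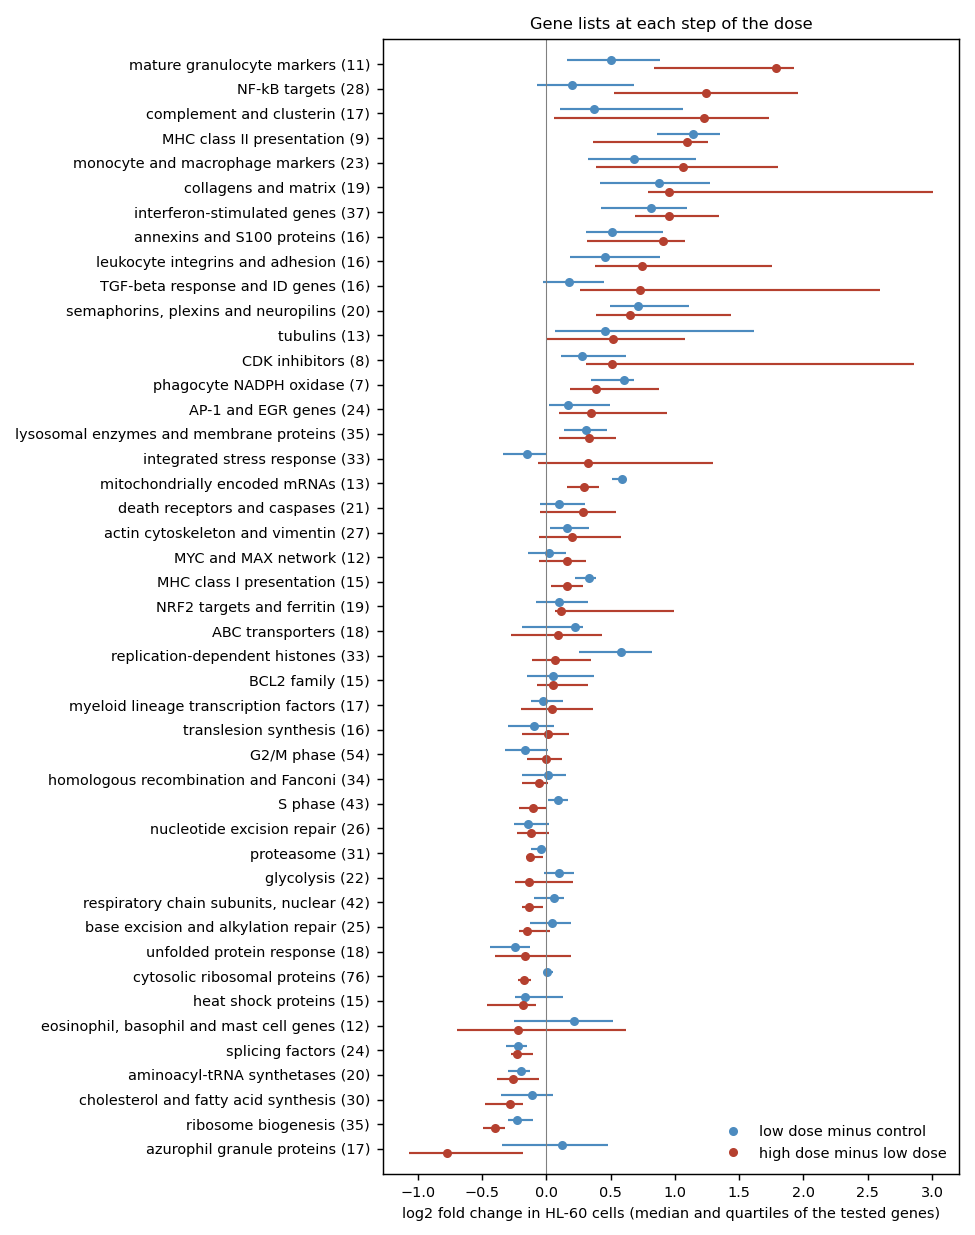
Median log2 fold change and quartiles over the tested genes of each list (number in parentheses) in HL-60 cells, for the first step (blue) and the second (red). NF-kB targets, granulocyte markers and complement have much larger second than first medians, and the azurophil list falls in the second step (median −0.77). The median of histone genes is 0.58 in the first step and 0.07 in the second. Among histone genes averaging 50 counts or more, the median of the second step is 0.34.

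Cell cycle genes changed little in size. Among all genes 24.2% rose and 27.4% fell in the first step, and 25.9% rose and 26.8% fell in the second. Of 43 S phase genes 19 rose and 5 fell in the first step (median 0.09), and 5 rose and 21 fell in the second (median −0.10, but 0.0065 with total counts alone, where 9 rose and 11 fell). MCM2, a subunit of the replicative helicase, stood at 536 and 536 CPM in the controls, 567 and 573 CPM at the low dose and 463 and 472 CPM at the high dose. PCNA, the polymerase clamp, stood at 352 and 351 CPM in the controls, 370.5 and 384 CPM at the low dose and 312 and 332 CPM at the high dose. RRM2, a ribonucleotide reductase subunit, chosen after its values were seen, stood at 283 and 281 CPM in the controls, 358 and 374 CPM at the low dose and 434 and 453 CPM at the high dose. MCM2 and PCNA rose slightly and then fell below the controls (−0.29, SE 0.03, adjusted p = 2.02e-07 and −0.23, SE 0.03, adjusted p = 2.01e-05), 7 members in all turning this way, while RRM2 rose in both steps (0.38 and 0.28). Of 54 G2/M genes 6 rose and 32 fell in the first step (median −0.17). In the second 15 rose and 16 fell (median −0.0063), near the shares of all genes. Total counts alone gave 24 rising and 7 falling in that step with a median of 0.10, where 4831 of all 13422 genes rose and 2107 fell. CENPF, a kinetochore protein, stood at 334 and 336 CPM in the controls, 273 and 266 CPM at the low dose and 225 and 215 CPM at the high dose. It fell in both steps (−0.31 and −0.29), and CBX5, a heterochromatin protein, rose in both (0.32 and 0.48). In 19 G2/M genes the second step was higher than the first past the test of the difference, and in none was it lower. Replication-dependent histone mRNAs, of which 33 of 52 were abundant enough to test, rose in 10 cases in the first step and 6 in the second, with 1 falling. The share of them that rose lay near that of all genes in the first step and below it in the second. The median of the second step was 0.07, but 0.34 among the 13 averaging 50 counts or more, where 5 rose and 0 fell.

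CDK inhibitors rose, 5 of 8 in the first step with 1 falling, and 6 in the second with none falling. CDKN1A, an inhibitor of G1 and S phase kinases, stood at 0.563 and 0.373 CPM in the controls, 1.49 and 1.21 CPM at the low dose and 19.6 and 20.3 CPM at the high dose. Its relative CDKN1C stood at 0.644 and 0.475 CPM in the controls, 1.11 and 1.31 CPM at the low dose and 9.18 and 8.26 CPM at the high dose. CDKN2B, an inhibitor of CDK4 and CDK6, stood at 0.697 and 0.356 CPM in the controls, 0.771 and 0.605 CPM at the low dose and 5.90 and 4.67 CPM at the high dose. High-dose values lay far above both other groups, and the second steps were 3.91, SE 0.12, adjusted p = 2.11e-14, 2.83, SE 0.22, adjusted p = 6.46e-09 and 2.95, SE 0.33, adjusted p = 1.68e-06. BTG2, which restrains proliferation, stood at 5.10 and 4.70 CPM in the controls, 8.29 and 9.37 CPM at the low dose and 36.8 and 36.6 CPM at the high dose and rose in both steps (0.87 and 2.04). GDF15, a secreted stress factor, was at 0 in the controls and 1.17 and 1.23 CPM at the high dose, at least 18.3-fold higher when every control library is set to 3 counts, which covers counting error only.

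DNA repair lists moved by small amounts. List counts in this paragraph are of the second step, in which 25.9% of all genes rose and 26.8% fell. With total counts alone 4831 of the 13422 genes rose and 2107 fell. In homologous recombination and Fanconi genes 2 of 34 rose and 13 fell in the second step (median −0.06), but with total counts alone 6 rose and 2 fell (median 0.05). Base excision genes rose in 3 of 25 and fell in 10, or rose in 6 and fell in 7 with total counts alone, and nucleotide excision genes rose in 2 of 26 and fell in 12, or rose in 4 and fell in 7. Translesion synthesis genes rose in 4 of 16 and fell in 7, but rose in 6 and fell in 3 with total counts alone. UNG, the uracil glycosylase, stood at 198 and 203 CPM in the controls, 206 and 209.7 CPM at the low dose and 151 and 152 CPM at the high dose, a fall in the second step (−0.46, SE 0.04, adjusted p = 6.6e-09). FEN1, the flap endonuclease, rose and then fell (0.26 and −0.20). Death receptors and caspases rose in 12 of 21 with 2 falling, and the BCL2 family in 7 of 15 with 2 falling. TNFRSF10B, a receptor for the death ligand TRAIL, stood at 15.2 and 14.6 CPM in the controls, 18.6 and 18.0 CPM at the low dose and 39.0 and 34.7 CPM at the high dose, and rose in both steps (0.30 and 1.002). AP-1 and EGR genes rose in 13 of 24 with 3 falling, tubulins in 5 of 13 with 3 falling, and ABC transporters in 7 of 18 with 5 falling. The falls among tubulins and ABC transporters lay near the share of all genes. EGR2, an immediate early factor, stood at 1.07 and 0.933 CPM in the controls, 1.30 and 2.05 CPM at the low dose and 14.4 and 10.6 CPM at the high dose (2.83, SE 0.19, adjusted p = 5.27e-10 in the second step). Of 18 genes that the study itself names from these samples, which are no independent evidence, 17 were tested, and 6 rose and 7 fell in the second step (median −0.06, but 0.05 with total counts alone). POLB, the repair polymerase, stood at 7.94 and 7.48 CPM in the controls, 8.58 and 8.17 CPM at the low dose and 7.54 and 8.36 CPM at the high dose (−0.06, adjusted p = 0.667 in the second step).

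Saturation was rare. CERCAM, an adhesion protein, stood at 0.992 and 1.22 CPM in the controls, 3.9998 and 4.91 CPM at the low dose and 5.24 and 4.55 CPM at the high dose. PTGER2, a prostaglandin receptor, stood at 4.61 and 5.00 CPM in the controls, 12.5 and 11.4 CPM at the low dose and 14.2 and 10.5 CPM at the high dose. GMFB, a regulator of actin branching, stood at 100.3 and 93.1 CPM in the controls, 43.3 and 44.9 CPM at the low dose and 37.4 and 38.6 CPM at the high dose. In CERCAM and PTGER2 the ranges of the 2 doses overlapped and both lay above the controls, their first steps being 1.99, SE 0.20 and 1.30, SE 0.14 and second steps of 0.11, adjusted p = 0.635 and 0.04, adjusted p = 0.842. GMFB was the only gene that saturated downwards (−1.13, SE 0.07, adjusted p = 5.53e-10), although it still fell by an amount that passed the test in the second step (−0.22, SE 0.08, adjusted p = 0.0273). METTL7B (1.46 and 0.21), GAMT (1.52 and 0.22), FLNC (1.46 and 0.30) and MCUB (1.39 and 0.19) completed the 6 upwards genes named by rule. Of the 18 saturating genes 7 also met the rule for growth, since a second step within a factor of 1.5 can still pass the test, and with an interval of a factor of 2 there were 58 upwards and 3 downwards.

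Turning genes outside the lists were mostly low. CPNE7, a calcium-dependent phospholipid-binding protein, stood at 1.47 and 1.48 CPM in the controls, 3.04 and 3.06 CPM at the low dose and 1.83 and 1.41 CPM at the high dose (1.04, adjusted p = 7.5e-05 and −0.94, SE 0.19, adjusted p = 0.000467). CD96, a receptor of NK and T cells, stood at 3.06 and 3.55 CPM in the controls, 5.64 and 7.22 CPM at the low dose and 3.89 and 3.53 CPM at the high dose. F13A1, the A chain of coagulation factor XIII, stood at 2.01 and 1.85 CPM in the controls, 3.61 and 2.62 CPM at the low dose and 2.01 and 1.44 CPM at the high dose. The low dose lay above the other groups in all 3. FCAR, the IgA receptor, stood at 24.9 and 23.2 CPM in the controls, 13.4 and 15.9 CPM at the low dose and 37.3 and 35.5 CPM at the high dose. Its low-dose values lay below the controls and its high-dose values above (−0.70, adjusted p = 3.83e-06 and 1.30, SE 0.09, adjusted p = 1.24e-09). SEPTIN5, a cytoskeletal GTPase, stood at 2.44 and 1.90 CPM in the controls, 0.819 and 1.38 CPM at the low dose and 1.83 and 1.75 CPM at the high dose (0.63, adjusted p = 0.0275), and its call was lost when low-dose replicate 1 was left out (0.37). Some calls of turning rest on how reads were shared. LY75-CD302 and CORO7-PAM16 are readthrough transcripts that overlap their parent genes. LY75-CD302 stood at 1.66 and 1.14 CPM in the controls, 5.88 and 1.21 CPM at the low dose and 2.29 and 0.522 CPM at the high dose, so that its rise was in 1 low-dose library, and without that library the second step was 0.03. RGPD5 stood at 3.03 and 5.73 CPM in the controls, 0.0964 and 0.235 CPM at the low dose and 2.48 and 3.23 CPM at the high dose and belongs to a family of near-identical genes, and with the family summed its second step was 0.10 and did not pass the test.

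Base composition went with the size of the change. Genes were divided into 5 groups of equal size by the share of A and T in their spans, from a median of 42.2% in the lowest to 62.2% in the highest. The median log2 fold change of the second step was 0.131, 0.0949, −0.0010, −0.0351 and −0.0871 from the lowest to the highest group, and that of the first step was 0.199, 0.140, 0.0172, −0.103 and −0.249. The share of genes that fell in the second step rose from 20.8% to 34.1%, and the share that rose dropped from 35.8% to 14.4%. By length of the gene span, the medians of the second step ran only from 0.0173 in the shortest to −0.0230 in the longest group of 5. Genes averaging 50 counts or more were also divided by both measures, and within short, middle and long ones alike, the third richest in A and T had a lower median (−0.118, −0.0981 and −0.0767) than the third poorest in them (0.0244, 0.0744 and 0.127). Across the 13422 genes Pearson's r between the second step and the share of A and T was −0.1727, a description over genes that share libraries and are not independent replicates.

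**Figure D4:**
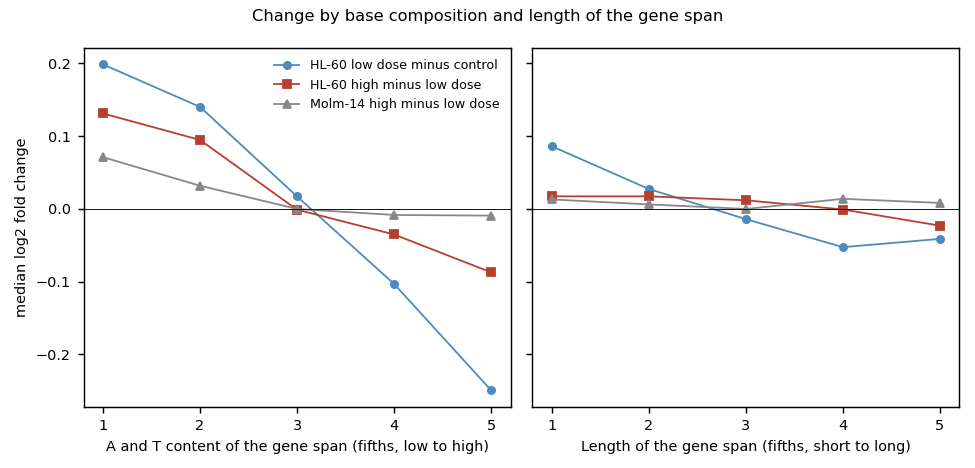
Median log2 fold change over 5 equal groups of the 13422 tested genes by A and T content of the gene span (left) and by its length (right), for both HL-60 steps and the Molm-14 step from low to high dose. The HL-60 lines fall from 0.199 to −0.249 (first step) and from 0.131 to −0.0871 (second step) with A and T content, and the Molm-14 line falls less, from 0.0712 to −0.0092.

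The same step in Molm-14 cells went from 11.1 to 100 pM, a ratio of 9.01 against 4.44 in HL-60 cells, so doses and lines cannot be told apart. The step differed between the lines in 564 genes (4.20%) that were higher in HL-60 cells and 142 (1.06%) that were lower, tested as an interaction, and at the adjusted p alone in 2101 (15.7%) and 2316 (17.3%). In the Molm-14 step 2.26% of genes were called higher and 0.618% lower, and 19.6% rose and 18.5% fell at the adjusted p. In Molm-14 cells 2 of 33 integrated stress response genes rose and 30 fell (median −0.88), whereas in HL-60 cells 20 rose and 8 fell, and the difference passed the test upwards in 31 and downwards in 1. CHAC1 changed by −2.51 in Molm-14 against 1.78 in HL-60 cells (difference 4.30, SE 0.23, adjusted p = 9.54e-11). STC2 changed by −2.80 against 2.68 (difference 5.48, SE 0.14, adjusted p = 6.49e-15), and ASNS, which fell in both, by −2.27 against −0.36 (difference 1.91, SE 0.06, adjusted p = 1.39e-13). G2/M genes fell in 53 of 54 cases in Molm-14 cells (median −0.57), and the difference was upwards in 45 and downwards in none. S phase genes fell in 42 of 43 (median −0.40), with the difference upwards in 36 and downwards in none.

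In the other direction, azurophil granule genes rose in 10 of 17 and fell in 1 in Molm-14 cells (median 0.26), with a difference downwards in 12 and upwards in none. PRTN3 changed by 0.13 in Molm-14 cells and by −1.63 in HL-60 cells (difference −1.76, SE 0.07, adjusted p = 1.76e-12). Ribosomal proteins rose in 14 of 76 and fell in 1 in Molm-14 cells (median 0.04), near the 19.6% of all genes that rose there. In HL-60 cells 67 of the 76 fell, and the difference was downwards in 67. CDKN1A rose in both lines and changed by 1.49 in Molm-14 cells and by 3.91 in HL-60 cells (difference 2.42, SE 0.14, adjusted p = 2.81e-10). Interferon-stimulated genes rose in 15 and fell in 2 of 37 in Molm-14 cells (median 0.29), with a difference upwards in 20 and downwards in 2. Lysosomal genes rose in 30 of 35 in Molm-14 cells (median 0.32) against 25 in HL-60 cells (median 0.33).

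**Figure D5:**
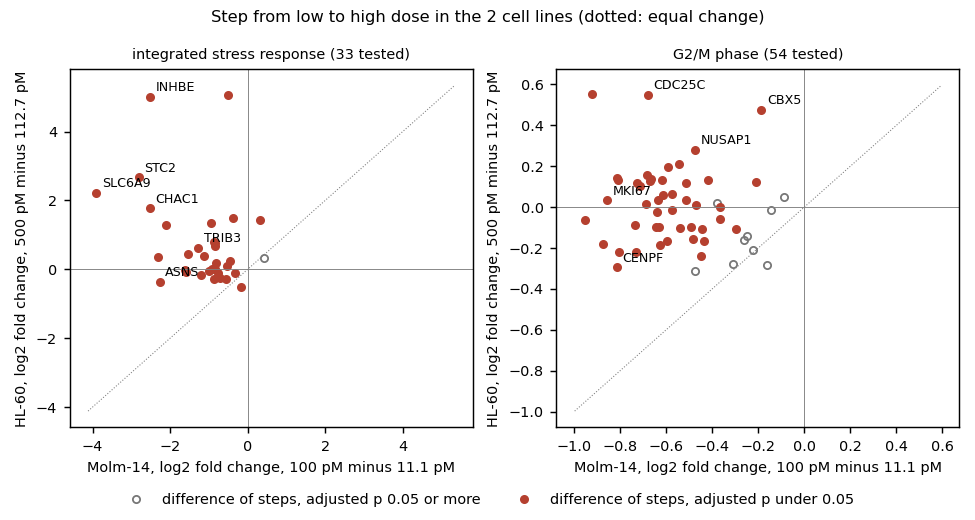
Log2 fold change from low to high dose in Molm-14 (100 minus 11.1 pM, horizontal) against HL-60 cells (500 minus 112.7 pM, vertical) for tested genes of 2 lists. Filled points differ between the lines at an adjusted p of 0.05, 32 of 33 for the integrated stress response and 45 of 54 for G2/M genes, and nearly all lie above the dotted line of equal change.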

How the data were processed

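RNA sequencing libraries of HL-60 and Molm-14 cells, 2 for each of 3 doses and line, were analysed as deposited. The authors trimmed reads with Trim Galore 0.60, aligned them with STAR 2.7 to hg38 and quantified genes of GENCODE release 31 with RSEM 1.31, as far as the submitters' processing notes and the study's methods name these steps. The deposited tables hold expected counts, TPM and FPKM for 60754 genes. The TPM and FPKM columns that the authors made with RSEM were left unused. No source used here gives the strandedness of the libraries, so a gene and its antisense partner cannot be told apart, and RSEM shares reads among near-identical genes.

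Expected counts were rounded to whole numbers and summed over 21177424 to 63927449 per HL-60 library. Gene types and positions came from GENCODE release 44, in which 60261 identifiers were matched and from which 45 pseudoautosomal Y copies were left out. The 19868 protein-coding genes of level 1 or 2 were filtered with filterByExpr over the 6 groups, which left 13422. One edgeR 4.0.16 quasi-likelihood fit (R 4.3.3, TMM factors, 1 mean for each group, all 12 libraries) gave every contrast, with Benjamini-Hochberg adjustment over the tested genes. The SE is the log2 fold change divided by the root of its F statistic. The Molm-14 step was subtracted from the HL-60 step in the same fit. Replicate pairs within a group differed by more than counting noise, with a chi-square per degree of freedom of 2.67 to 3.94 in HL-60 cells, so no library was counted as a duplicate. The procedure was tested on simulated counts.

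The comparison and its 53 gene lists were chosen with earlier results of these data known. Named genes were the 12 largest changes each way among genes averaging 50 counts or more, with no overlap of groups, up to 6 genes for each dose pattern and direction, the 4 members (or fewer) of smallest p in each list, and the genes the study names. Genes outside this rule are said to be chosen after their values were seen. A few genes that the rule names are not reported here. LUZP6 and 2 other listed symbols had no match. Promoters are RefSeq sequence of GRCh38.p14, 250 bases before each gene's RefSeq start, which can differ from the start of the GENCODE span. Alternatives were DESeq2 1.42.0, limma-voom (limma 3.58.1), other scaling, filters and thresholds, thinning to the smallest library, fewer libraries, a replicate block, and, chosen after seeing the data, near-identical or overlapping genes summed. The interval that defines saturation is at the 95% level.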

Additional observations from a re-analysis of the deposited data

Results flagged for a closer look

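The step from low to high dose differed between the lines in 564 genes that were higher in HL-60 cells and 142 that were lower, by the contrast of the steps in edgeR's fit. The doses and their ratio also differ between the lines, so line and dose cannot be told apart. In 4 named genes the step passed the test with a fold over 2 in both lines and in opposite directions, upwards in HL-60 cells and downwards in Molm-14 cells. The difference on the log2 scale was 4.30, SE 0.23, for CHAC1 and 5.48, SE 0.14, for STC2. For KLHDC7B the difference was 8.77, with a larger SE of 0.93. This gene had only 6 and 8 counts at the low dose in HL-60 cells, and its Molm-14 step was −3.27, SE 0.92. The difference was 7.25 for RGPD5, which had very few counts at the low dose in HL-60 cells and shares reads with a near-identical family.

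Outside the protein-coding genes of the main test, 3964 more genes were tested in a fit of all gene types, and 354 were called higher and 42 lower at the high than at the low dose in HL-60 cells. Of these, 2267 were long noncoding RNAs, with 260 called higher and 17 lower. With 2 libraries in each group, no group was large enough for a check for single outlying libraries.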

How the results depend on the processing

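Counts of called genes depended mostly on thresholds and filters. Without the fold threshold the high dose had 3475 higher and 3591 lower genes than the low dose, the low dose 3254 and 3683 against control, the high dose 4802 and 5075 against control, the difference between steps 1559 and 1471, and HL-60 minus Molm-14 2101 and 2316. With an unadjusted p and a fold over 2 the steps differed in 293 and 221 genes. Among genes averaging 50 counts or more, the numbers were 519 and 42 (high against low), 390 and 7 (low against control), 1235 and 136 (high against control), 349 and 94 (between lines), 75 lower second steps, and 70 late rising and 21 late falling genes. With all gene types, 74 genes fell at the low dose, and 774 rose and 100 fell late. DESeq2 gave 17 genes lower at the low dose, 106 higher second steps, 1309 growing downwards and 115 turning from a fall to a rise. Total counts alone gave 151 genes lower at the high dose than in controls, 970 growing downwards and 394 turning from a fall to a rise, and DESeq2's size factors in edgeR gave 375 turning from a rise to a fall. Asking for a fold over 1.5 in every step left 802 growing upwards, 27 growing downwards, 21 turning from a rise and 11 from a fall. Saturation within a factor of 2 gave 58 and 3 genes, and thinned libraries gave 2 downwards.

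Leaving out each HL-60 library in turn gave 988 to 1116 higher and 82 to 117 lower genes at the high against the low dose, 591 to 757 and 28 to 44 for low dose against control, 2148 to 2315 and 258 to 287 for high dose against control, 120 to 177 and 78 to 148 for the difference between steps, and 471 to 572 and 134 to 156 between lines. Growing genes ran from 1335 to 1766 upwards and 1439 to 1874 downwards, late genes from 417 to 628 and 53 to 75, saturating genes from 11 to 25 and 1 to 6, and turning genes from 137 to 254 (rise first) and 147 to 265 (fall first). A group left with 1 library takes its spread from the others. Turning genes were fewest without low-dose replicate 2 (137 and 147), lower second steps without low-dose replicate 1 (78), and rising saturating genes without high-dose replicate 2 (11), while falling saturating genes went from 1 to 6 without control replicate 2 and to 2 without either low-dose library. Among combinations of the 244 named genes and settings, 4275 kept their outcome at the adjusted p, 69 no longer passed and 17 came to pass. A change of direction was counted only where either fit passed, so the 4275 can include changes of direction in genes that passed in neither. The 1 change counted was in LY75-CD302, at −2.60 to 0.029 with 1 library left out, the latter without low-dose replicate 1. With total counts alone the medians of S phase genes (0.0065), homologous recombination and Fanconi genes (0.050) and genes the study names (0.052) changed sign, as did those of G2/M genes and Molm-14 markers, which lay near 0 before and came to 0.10 and 0.11. The causes were not tested.

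A replicate block gave 1082 higher and 97 lower genes at the high against the low dose. The labels do not say whether replicate numbers mark pairs. Replicate differences correlated between the HL-60 groups at 0.032, −0.017 and −0.036 across genes, which cannot exclude pairs, since noise in each gene also lowers such a correlation. Depth limits genes of few counts, for which a level of 0 covers counting error only.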

Other observations

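Among long noncoding RNAs, which the comparisons above leave out, the values here come from the fit of all gene types and were chosen after they were seen from the 20 largest changes with enough counts. PELATON, a noncoding RNA of monocytes and macrophages, stood at 2.23 and 2.35 CPM in the controls, 5.24 and 5.52 CPM at the low dose and 23.4 and 23.1 CPM at the high dose. LINC00963 stood at 8.80 and 8.15 CPM in the controls, 18.0 and 16.7 CPM at the low dose and 44.04 and 44.6 CPM at the high dose. Both rose in each step without overlap of the groups (PELATON 1.23 and then 2.11, SE 0.13, LINC00963 1.04 and then 1.36, SE 0.07). LUCAT1, a noncoding RNA of stress and inflammation, stood at 0.152 and 0.240 CPM in the controls, 0.723 and 0.504 CPM at the low dose and 3.42 and 4.97 CPM at the high dose. ITGB2-AS1 stood at 2.44 and 2.62 CPM at the low dose and 18.5 and 19.4 CPM at the high dose, and its reads cannot be told apart from those of the integrin gene ITGB2 that it overlaps.

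MALAT1, an abundant nuclear RNA, stood at 219 and 222 CPM in the controls, 275 and 265 CPM at the low dose and 390.3 and 1306 CPM at the high dose. The high-dose libraries therefore differed from each other by more than any other group did for this gene, and high-dose replicate 2 stood apart.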
